A study of Mus musculus with 8 samples.

Results

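Drd2, Adora2a, Penk and Gpr6 mark the striatal projection neurons of the indirect pathway, and their RNA was followed here in the cortex of mice fed with either diet. The 4 genes were taken by name, as the rows for these symbols among the 13996 genes with FPKM values, and all 4 were found. The genes were chosen by measured values, since earlier results of these FPKM had shown them lower on the high fat diet (HFD), so the difference between the diets is described for them without a test. Cortexes came from male C57BL/6 mice that were 16 weeks old, 4 on a normal diet and 4 that had received a diet with 60% fat by weight for 8 weeks, starting at an age of 8 weeks. Each mouse gave 1 library of rRNA-depleted total RNA. The values are FPKM (fragments scaled to the length of the transcript and to the mapped reads of the library), which the authors calculated with Cuffnorm and which allow levels to be compared between genes per length. They are rounded to 0.1, and the read number behind each value is unknown. Each mouse is a separate animal, but the samples are bulk tissue, so fewer cells of a type and less RNA per cell cannot be told apart.

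Striatal projection neurons are GABAergic neurons that receive dopamine from the midbrain, and they form a direct and an indirect pathway through the basal ganglia. Neurons of the indirect pathway carry the D2 dopamine receptor (Drd2), which couples to Gi and lowers cAMP, and the adenosine receptor of type 2A (Adora2a), which couples to Golf and raises it. They release enkephalin, which is cut from the precursor encoded by Penk, and they express Gpr6, an orphan receptor that activates Gs without an added ligand. These genes are densely expressed in the striatum, which lies below the cortex, while Penk is also found in some neurons of the cortex and in other regions.

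All 4 are protein-coding genes on GRCm38 (GENCODE M21), the build used for the alignment, and the identifiers with their versions were the same there. Penk (ENSMUSG00000045573.9) lies on the minus strand of chromosome 4 from 4133531 to 4138819. Chromosome 10 carries both Adora2a (ENSMUSG00000020178.6, plus strand, 75316877 to 75334784) and Gpr6 (ENSMUSG00000046922.7, minus strand, 41069977 to 41072285). Drd2 (ENSMUSG00000032259.8) spans 67551 bp of the plus strand of chromosome 9, from 49340627 to 49408177. The whole gene span of Gpr6 is 2309 bp.

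Promoter sequences of RefSeq (GRCm38.p6, from 250 bases before to 50 bases after the annotated start) were matched for 2 of the 4 members, Drd2 and Gpr6. They are shown as the members with an entry there, and no value here ties their letters to the difference between the diets. Motif positions are counted from the RefSeq start, which for Gpr6 lies 5 bp and for Drd2 (at 49340403) 224 bp from the GENCODE start of the gene. The sequences run 5′ to 3′ on the strand of the gene, Drd2 at chr9:49340153-49340452 (plus strand) and Gpr6 at chr10:41072241-41072540 (minus strand), and capitals mark matches, on either strand, to a cAMP response element (CRE), its core, a GC box, a CCAAT box or a TATA box, each spelled out after the sequences.
Drd2: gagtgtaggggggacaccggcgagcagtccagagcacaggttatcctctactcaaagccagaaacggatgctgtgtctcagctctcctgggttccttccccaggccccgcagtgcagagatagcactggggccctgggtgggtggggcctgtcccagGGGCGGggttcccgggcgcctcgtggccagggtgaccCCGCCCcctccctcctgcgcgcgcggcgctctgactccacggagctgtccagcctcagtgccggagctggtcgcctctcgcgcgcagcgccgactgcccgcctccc
Gpr6: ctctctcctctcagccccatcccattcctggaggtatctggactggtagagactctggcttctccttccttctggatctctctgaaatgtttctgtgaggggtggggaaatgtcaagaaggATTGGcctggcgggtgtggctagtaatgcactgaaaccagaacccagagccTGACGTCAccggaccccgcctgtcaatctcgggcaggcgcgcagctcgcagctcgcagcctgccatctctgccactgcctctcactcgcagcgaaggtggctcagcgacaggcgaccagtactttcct

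The Gpr6 promoter holds 1 whole CRE (letters TGACGTCA), 78 to 71 bases before the start, and this motif is present in 1.79% of the 32851 promoters of the same length. It also holds 1 CCAAT box (in 37.4% of promoters) and no GC box. The Drd2 promoter holds 2 GC boxes (letters GGGCGG, in 35.7% of promoters), 93 to 88 and 56 to 51 bases before the start, and no CCAAT box. The core of the CRE (letters TGACG, in 20.8% of promoters) matches on both strands within the CRE of Gpr6 and nowhere in the Drd2 window. No TATA box (letters TATAAA), which 13.6% of promoters contain, was found in either window. Of their bases, 70.3% are G or C in Drd2 and 58.7% in Gpr6, against a median of 52.7% over all promoters. These matches describe the letters of the windows.

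Penk, the precursor of the enkephalin peptides, had the highest level of the 4 genes in every mouse. Its FPKM was 131.5, 114.4, 118.5 and 71.3 in normal mice 1 to 4, and 11.7, 9.3, 11.4 and 12.3 in HFD mice 1 to 4. The diets did not overlap, and the lowest normal mouse was 5.80 times the highest HFD mouse. The mean was 109 ± 26.1 (SD, n = 4) on the normal diet and 11.2 ± 1.30 (SD, n = 4) on the high fat diet, or 10.3% of the normal mean.

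Adora2a, the adenosine receptor, was at 13.1, 10.5, 8.5 and 5.7 FPKM in the 4 normal mice. It was at 0.4 in HFD mice 1, 2 and 3 and at 0.6 in mouse 4. Its mean of 9.45 ± 3.13 (SD, n = 4) was set against 0.45 ± 0.1 (SD, n = 4), which was the smallest share of a normal mean among the members, 4.76%. At these low levels rounding matters, and the unrounded ratio of the means could lie between 18.8 and 23.8.

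Drd2, the D2 dopamine receptor, was at 9.3, 8, 6.1 and 4.2 FPKM in normal mice and at 0.7, 0.3, 0.3 and 0.5 in HFD mice. Its mean was 6.90 ± 2.23 (SD, n = 4) on the normal diet and 0.45 ± 0.191 (SD, n = 4) on the high fat diet, 6.52% of the normal mean. With rounding, the ratio of the means could lie between 13.7 and 17.4.

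Gpr6, the constitutively active receptor, was at 7.4, 6.6, 5.4 and 3.9 FPKM in normal mice and at 1.9, 1.9, 1.5 and 1.8 in HFD mice. It therefore kept the largest share of its normal mean, 30.5%, with means of 5.83 ± 1.52 (SD, n = 4) and 1.78 ± 0.189 (SD, n = 4). The lowest normal mouse was 2.05 times the highest HFD mouse.

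**Figure D1:**
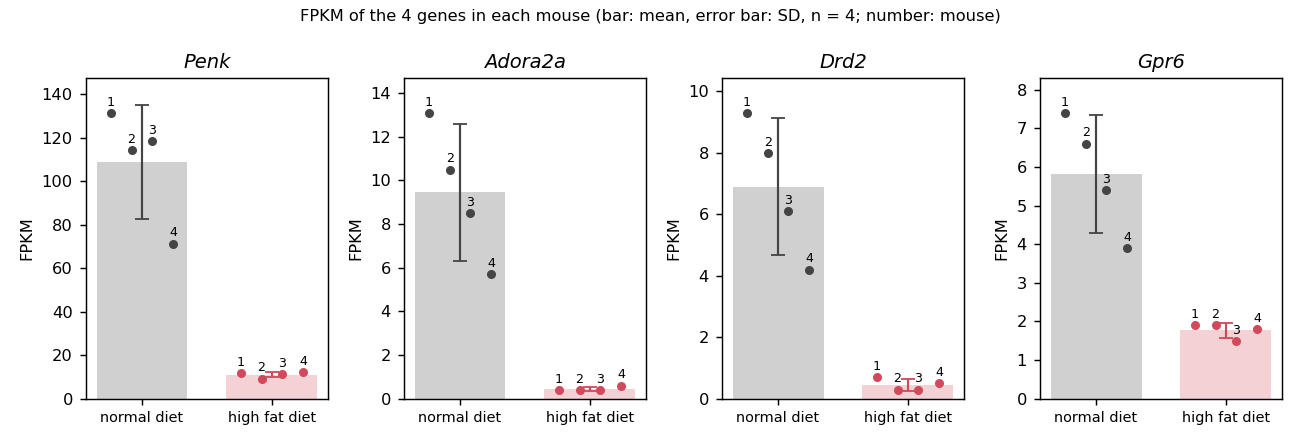
FPKM of Penk, Adora2a, Drd2 and Gpr6 (vertical axes, each from 0) in the 4 mice of each diet, with points for mice, numbers for the mouse, bars for the mean and error bars for the SD (n = 4). In each panel the 4 normal mice lie above the 4 HFD mice, and normal mouse 4 is the lowest of its diet.

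On the log2(FPKM + 0.1) scale the difference of high fat diet minus normal diet was -4.07 for Adora2a, -3.67 for Drd2, -3.24 for Penk and -1.63 for Gpr6. Ordered from the most negative difference among the 13982 genes tested (averaging 1 FPKM or more, never at 0), which included all 4 members, these were at places 3, 5, 7 and 56. The members were chosen from this difference, so the places only describe that choice. Adora2a and Drd2, each averaging 0.45 FPKM on the high fat diet, reached the mean of 1 FPKM only through the normal mice. No overlap between diets with the lower values on the high fat diet was seen in 4 of the 4 members and in 14.7% of the genes tested, and the choice of the members fixes the first of these numbers. Adding a constant of 1 instead of 0.1 reduced the differences of the low genes, to -2.80 for Adora2a, -2.41 for Drd2 and -1.27 for Gpr6. Penk was then at -3.15, the most negative of the members, so their order depends on the constant. With any mouse left out, Adora2a stayed between -4.29 and -3.89, Drd2 between -3.89 and -3.51, Penk between -3.44 and -3.14 and Gpr6 between -1.80 and -1.50.

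Within the normal diet, the 4 genes ordered the mice in nearly the same way. Normal mouse 1 was the highest and normal mouse 4 the lowest for 4 of 4 members, while among all genes tested 3.98% had both. The members were chosen with these values known and mark the same neurons. The 4 are therefore not separate observations, and the count is a description only. Mouse 2 lay above mouse 3 for Adora2a, Drd2 and Gpr6, but below it for Penk. Normal mouse 1 was 2.30 times normal mouse 4 for Adora2a, 2.21 times for Drd2, 1.90 times for Gpr6 and 1.84 times for Penk, with a median ratio of 1 over all genes tested. The coefficient of variation within the normal diet was 33.1% for Adora2a, 32.3% for Drd2, 26.2% for Gpr6 and below these for Penk. On the high fat diet it was 11.7% for Penk and 10.7% for Gpr6. For Drd2 it was 42.6% on that diet and for Adora2a 22.2%, where a rounding of 0.05 FPKM each way amounts to 16.7% of a value of 0.3. The HFD mice shared no common order, with mouse 4 the highest for Penk and Adora2a, mouse 1 for Drd2, and mice 1 and 2 tied for Gpr6.

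**Figure D2:**
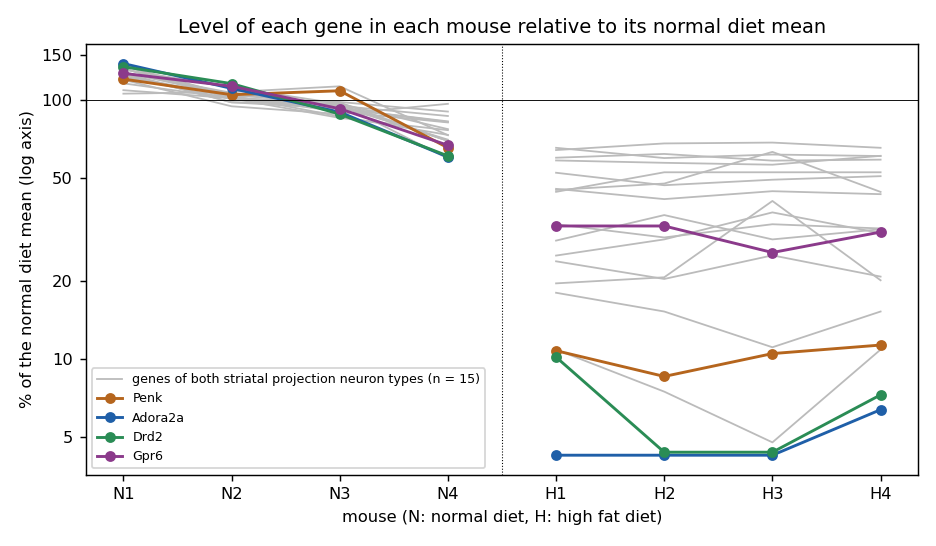
Level in each mouse as a percentage of the mean of the normal diet (log axis), for the 4 members (coloured points) and the 15 listed genes of both types of striatal projection neuron (grey lines); lines only join the values of 1 gene within a diet, since mice have no order. The members lie between 60.3% and 139% in normal mice, and in HFD mice Adora2a and Drd2 lie at or below 10.1%, Penk between 8.54% and 11.3% and Gpr6 between 25.8% and 32.6%.

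The order of the 4 genes by level was the same in the 4 normal mice, Penk above Adora2a above Drd2 above Gpr6. On the high fat diet Penk was still the highest, and Gpr6 was second in all 4 mice. Adora2a lay above Drd2 in mice 2, 3 and 4 and below it in mouse 1. In those 3 mice the values of Adora2a and Drd2 differed by 0.1 FPKM, the size of the rounding step. Penk made up 81.5% to 85.6% of the summed FPKM of the 4 genes in normal mice and 78.2% to 83.8% in HFD mice.

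Adora2a and Drd2, the pair of receptors with opposite action on cAMP, kept a nearly fixed ratio within the normal diet. Adora2a/Drd2 was 1.41, 1.31, 1.39 and 1.36 in normal mice 1 to 4, a coefficient of variation of 3.13%, below that of either gene among the same mice. On the high fat diet the ratio was 1.33 in mice 2 and 3, 1.2 in mouse 4 and 0.571 in mouse 1. Rounding alone allows 1 to 1.8 in mice 2 and 3 and 0.467 to 0.692 in mouse 1, so the value of mouse 1 lay below those of the other 7 mice also within its rounding error.

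Ratios with Gpr6 were also compared. Drd2/Gpr6 was between 1.08 and 1.26 in normal mice and between 0.158 and 0.368 in HFD mice. Penk/Gpr6 was between 17.3 and 21.9 against 4.89 to 7.60, and Adora2a/Gpr6 between 1.46 and 1.77 against 0.211 to 0.333, so these 3 ratios did not overlap between the diets. Penk/Adora2a did not overlap either, at 10.04 to 13.9 in normal mice and a higher 20.5 to 29.3 in HFD mice. Penk/Drd2 overlapped, at 14.1 to 19.4 in normal mice and 16.7 to 38 in HFD mice. As the ratios are made from the same values as the difference between the diets, they are given without a test.

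**Figure D3:**
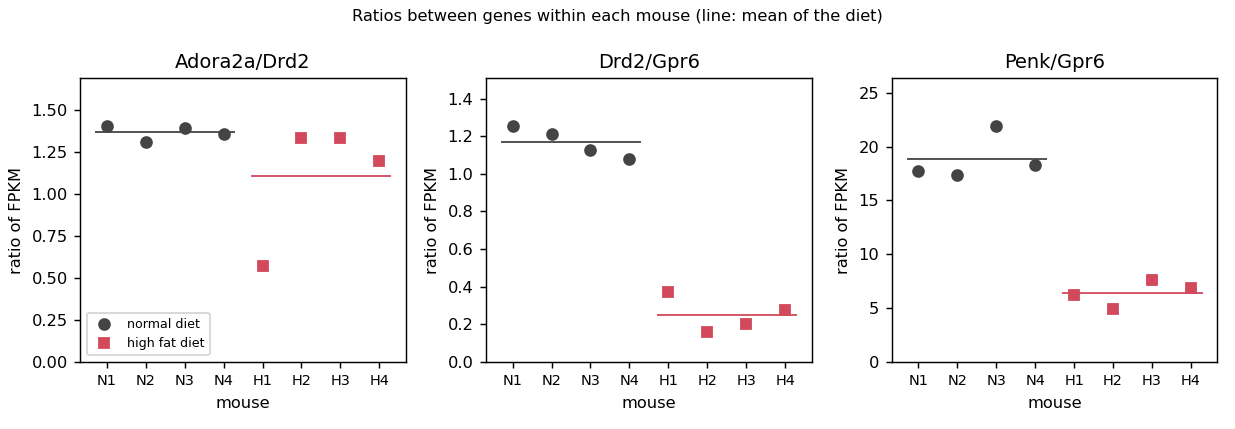
Ratio of FPKM between 2 members within each mouse (vertical axes from 0) for Adora2a/Drd2, Drd2/Gpr6 and Penk/Gpr6; circles are normal mice, squares are HFD mice and lines are the mean of a diet. Adora2a/Drd2 is between 1.31 and 1.41 in normal mice, and the ratios with Gpr6 do not overlap between the diets.

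Genes of other striatal neurons show how far the 4 members went with their neighbours in the tissue. For these lists, limma was run on log2(FPKM + 0.1) of the 13982 genes (two-sided, Benjamini-Hochberg adjustment over all of them). Calls needed an adjusted p under 0.05 together with a ratio between the diets above 1.5 in either direction (the minimum change). The ratio was taken from the log2 difference. By this rule 2.9% of all genes tested were called lower and 4.23% called higher on the high fat diet, and the median log2 difference over all genes was 0.0031. Of 15 measured genes found in both types of striatal projection neuron, 14 were called lower and 0 higher, with a median log2 difference of -1.16. For 15 of 15 the diets did not overlap, with the lower values on the high fat diet, against 14.7% of all genes tested. The gene not called was Gnal, the alpha subunit of Golf, which passed the adjusted threshold but not the minimum change (log2 difference -0.58, standard error 0.06, adjusted p = 0.000556 from limma). Gnal lay at the edge of that minimum, with a ratio of mean FPKM of 1.502. After median-ratio or quantile scaling, 15 of the 15 genes were called lower. Ppp1r1b (DARPP-32, an inhibitor of protein phosphatase 1 regulated by dopamine) fell from 90.2 ± 21.7 to 27.4 ± 4.41 FPKM (SD, n = 4), a log2 difference of -1.70 (standard error 0.17, adjusted p = 0.000545 from limma). Rgs9, a regulator that ends G protein signals, fell from 23.1 ± 5.99 to 5.20 ± 0.535 (log2 difference -2.10, standard error 0.17, adjusted p = 0.00014 from limma).

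In these 15 genes the HFD mice kept 8.47% to 66.6% of the normal mean, with a median of 43.7%. None of the 15 was below the share kept by Adora2a or Drd2, 1 was below that of Penk (Lrrc10b) and 5 were below that of Gpr6. The share kept by Gpr6, 30.5%, was next to that of Ppp1r1b (30.4%).

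Of 7 measured genes of the direct pathway, 3 were called lower and 0 higher, with a median log2 difference of -0.57. The D1 dopamine receptor (Drd1, listed under the shortened name Drd and matched by its identifier ENSMUSG00000021478.6) was 18.5, 13.3, 13.4 and 9.2 FPKM in normal mice and 4.6, 3.6, 3.5 and 4.5 in HFD mice. Like the members, it was highest in normal mouse 1 and lowest in normal mouse 4, and it fell by 1.69 on the log2 scale (standard error 0.19, adjusted p = 0.000713 from limma). Tac1, which encodes the substance P precursor of the direct pathway, fell from 25.8 ± 4.22 to 7.3 ± 1.08 FPKM (log2 difference -1.81, standard error 0.14, adjusted p = 0.000126 from limma). Ebf1, a transcription factor at 3.3 FPKM in normal mice 2 and 3 and 1.1 and 1.3 in mice 1 and 4, was called lower (log2 difference -1.32, standard error 0.35, adjusted p = 0.0191 from limma), but without normal mouse 2 the difference was -1.09 and the adjusted p 0.0523, and with each mouse left out the adjusted p lay between 0.00758 and 0.0523 in limma. Pdyn, the dynorphin precursor, was 10 ± 0.821 and 6.75 ± 1.01 FPKM and missed the minimum change (log2 difference -0.57, adjusted p = 0.00457 from limma). Chrm4, Sfxn1 and Eya1 were at log2 differences of 0.13, 0.05 and 0.46, of which Eya1 passed the adjusted threshold (0.0344 from limma).

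The ratios Drd2/Drd1 and Penk/Tac1, which set a gene of each pathway side by side, were lower on the high fat diet. Drd2/Drd1 was 0.503, 0.602, 0.455 and 0.457 in normal mice and 0.152, 0.0833, 0.0857 and 0.111 in HFD mice. Penk/Tac1, the ratio of the peptide precursors, was 4.23, 4.40, 4.68 and 3.43 in normal mice and 1.52, 1.15, 1.48 and 2.16 in HFD mice. Neither ratio overlapped between the diets, and since Drd2 and Penk were chosen for their difference, no test was made. Not every member fell further than the direct pathway genes. Gpr6 kept 30.5% of its normal mean, near the 29.8% of Drd1 and the 28.3% of Tac1.

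Other genes reported as enriched in indirect over direct pathway neurons went another way. Of 5 with a value, 0 were called lower and 1 was called higher, with a median log2 difference of 0.49. The 1 called was Grik3, a kainate receptor subunit, at 10.2 ± 1.04 FPKM in normal mice and 15.5 ± 0.479 in HFD mice (log2 difference 0.61, standard error 0.07, adjusted p = 0.000864 from limma). It was near the minimum change, and without normal mouse 2 or 3 it was at 0.58 or 0.55, under that minimum, with adjusted p between 0.000636 and 0.00476 from limma over all mice left out. Necab1, Plxdc1 and Gucy1a1 (listed under its older name Gucy1a3) were at 0.49, 0.52 and 0.30, past the adjusted threshold but not the minimum change, and Ptprm was at -0.17 (adjusted p = 0.117 from limma). These genes are also expressed in cortical neurons, and Gpr52, Sp9 and Upb1 were not analysed here.

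**Figure D4:**
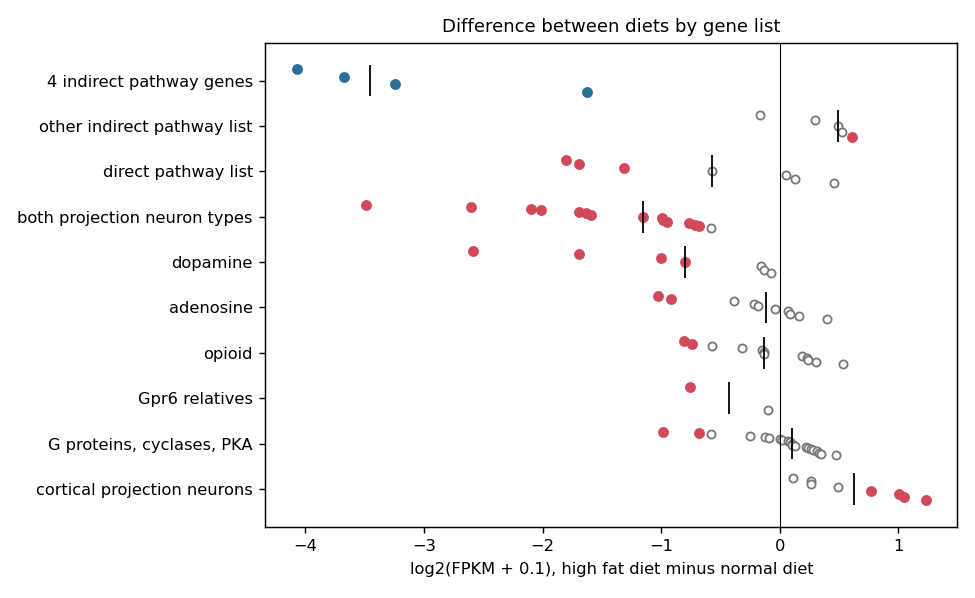
Difference between the diets, high fat diet minus normal diet on the log2(FPKM + 0.1) scale (horizontal axis), for each tested gene (point) of the 4 members and 9 lists; filled points in lists were called, open points were not, members (blue) carry no test, and black bars are medians. The members reach from -4.07 to -1.63, and the list of both projection neuron types from -3.49 to -0.58.

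The spread among normal mice and the difference between diets went together across striatal genes. Normal mouse 1 was the highest and normal mouse 4 the lowest in 13 of the 15 genes of both projection neuron types, and the median ratio of mouse 1 to mouse 4 was 1.65, with a range from 1.21 to 2.21. Across these 15 genes, the log2 difference of normal mouse 1 minus normal mouse 4 had Spearman's rho of -0.85 and Pearson's r of -0.72 with the log2 difference between the diets. Over all 13982 genes tested rho was -0.17 and r was -0.068. This is a description across genes, which are not independent replicates, and both measures contain the same normal mice. On the first measure Adora2a was at 1.19, Drd2 at 1.13, Gpr6 at 0.91 and Penk at 0.88. In the direct pathway list 2 of 7 genes had mouse 1 highest and mouse 4 lowest, in the other indirect pathway list 0 of 5 and in the list of cortical projection neurons 0 of 8. The order was not confined to striatal genes. In the choroid plexus list 2 of 4 genes had it, 4 of 4 were lowest in normal mouse 4, and the median ratio was 1.90. All 6 oligodendrocyte markers were lowest in normal mouse 4 (median ratio 1.35), but 0 were highest in normal mouse 1.

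**Figure D5:**
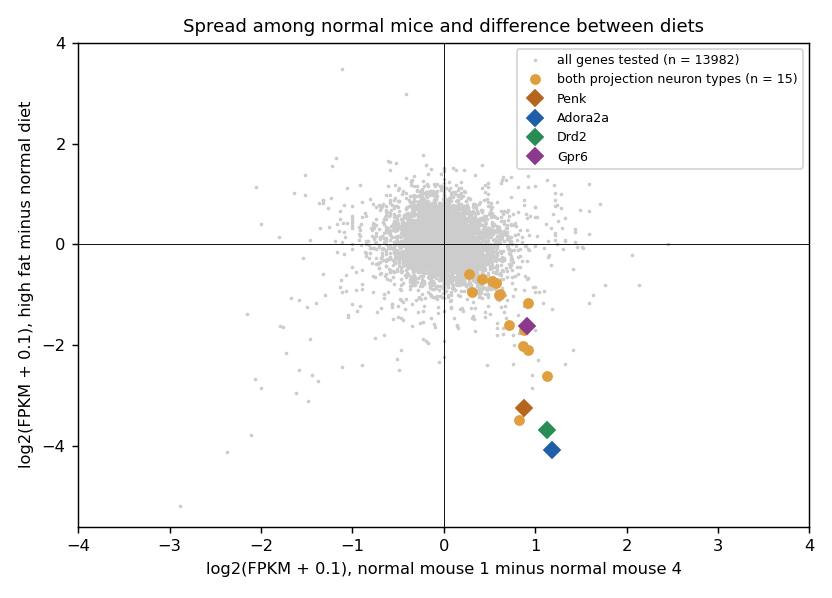
Each point is a gene; the horizontal axis is the log2(FPKM + 0.1) difference of normal mouse 1 minus normal mouse 4, and the vertical axis is that of high fat diet minus normal diet. The 4 members (diamonds) and 15 genes of both projection neuron types (circles) lie to the right of 0 and below 0, and 1 of the 13982 genes tested (grey) lies outside the axes.

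The genes with the profile most like that of the members were striatal genes in several cases. Likeness was the root mean square distance over the 8 mice between log2(FPKM + 0.1) profiles, each centred on its own mean. The nearest to the mean profile of the 4 members were Lrrc10b (distance 0.30) and Syndig1l (0.30), followed by Rxrg (0.51), a retinoid X receptor, Nexn (0.54), an actin-binding protein, Rgs9 (0.56), AC084109.5 (0.67), Th (0.69), tyrosine hydroxylase, and Scn4b (0.70), a sodium channel beta subunit. Of these 8 genes, Lrrc10b, Syndig1l, Rgs9 and Scn4b belong to the list of both projection neuron types. Lrrc10b was also the nearest gene to Drd2 (0.24), Adora2a (0.42) and Penk (0.36) taken singly. It was at 20.1, 15, 12.6 and 11.3 FPKM in normal mice and at 1.6, 1.1, 0.7 and 1.6 in HFD mice. Among the members themselves, Drd2 and Penk (0.35) and Drd2 and Adora2a (0.36) were closest, while Adora2a and Gpr6 (1.24) were farthest apart. These distances contain the difference between the diets and carry no p.

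Dopamine is the ligand of Drd2, and 4 of 7 measured genes of dopamine receptors, synthesis and breakdown were called lower, with 0 higher and a median log2 difference of -0.80. Besides Drd1, these were Th, the rate-limiting enzyme of dopamine synthesis, Ddc, which forms dopamine from L-DOPA, and Drd5, another receptor of the D1 type. Th was 2, 4.2, 3.5 and 5.6 FPKM in normal mice and 0.4 to 0.7 in HFD mice (log2 difference -2.58, standard error 0.29, adjusted p = 0.000722 from limma). Unlike the members, Th was highest in normal mouse 4 and lowest in normal mouse 1. Normal mouse 4 also held the highest summed FPKM of 4 olfactory bulb markers, a list that includes Th, with 29.9 against 8.6 to 9 in the other normal mice and 3.3 to 5.5 on the high fat diet, and its part in the value of Th was not tested. Ddc was called at -1.001 (standard error 0.26, adjusted p = 0.0166 from limma), and without normal mice 2 and 3 it was at -0.51, under the minimum change. Drd5 was 1.35 ± 0.129 and 0.775 ± 0.320 FPKM (log2 difference -0.80, adjusted p = 0.0391 from limma). It lost its call when normal mouse 1, 2, 3 or 4 or HFD mouse 2 or 3 was left out, with adjusted p from 0.0246 to 0.0985 in limma over the 8 mice left out. Maoa and Maob, which break dopamine down, were at -0.16 and -0.14 and did not pass.

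Of 10 measured genes of adenosine receptors, formation, transport and breakdown, 2 were called lower and 0 higher, with a median log2 difference of -0.11. Adora1, the A1 receptor, which is the abundant adenosine receptor of the cortex, was at 49.6 ± 2.57 and 52.5 ± 2.68 FPKM (log2 difference 0.08, adjusted p = 0.265 from limma), and Adora2b was at 1.68 ± 0.171 and 1.63 ± 0.171 (adjusted p = 0.824 from limma). Adora2a thus lay between these receptors on the normal diet and below both on the high fat diet. The genes called were Nt5e, the ecto-enzyme that forms adenosine from AMP, which fell from 2.45 ± 0.208 to 1.15 ± 0.0577 FPKM (log2 difference -1.03, standard error 0.11, adjusted p = 0.000695 from limma), and the transporter Slc29a4 (log2 difference -0.91, adjusted p = 0.0045 from limma).

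Of 12 measured genes of opioid peptides, receptors and enkephalin processing, 2 were called lower and 0 higher, with a median log2 difference of -0.13. Oprk1, the kappa receptor, fell from 1.80 ± 0.424 to 0.975 ± 0.150 FPKM (log2 difference -0.81, standard error 0.19, adjusted p = 0.0101 from limma). Mme, an enzyme that degrades enkephalins, fell from 2.70 ± 0.408 to 1.58 ± 0.206 (log2 difference -0.74, standard error 0.15, adjusted p = 0.00531 from limma). With an added constant of 1 both were under the minimum change, at -0.49 and -0.52. The receptors that bind enkephalins, Oprd1 and Oprm1, were at 0.23 and -0.32 (adjusted p = 0.201 and 0.0921 from limma). Pcsk1 and Pcsk2, which cut the precursor, were at 0.53 and 0.19, of which Pcsk1 passed the adjusted threshold (0.00176 from limma) but not the minimum change, and Cpe, which trims the peptides, was at -0.13 (adjusted p = 0.143 from limma).

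Gpr3 and Gpr12 are the receptors most closely related to Gpr6. Gpr3 was 5.2, 4.8, 3.6 and 4.5 FPKM in normal mice and 2.1, 2.4, 4 and 2.3 in HFD mice, and was called lower (log2 difference -0.76, standard error 0.19, adjusted p = 0.0163 from limma) although HFD mouse 3 lay within the range of the normal mice. Gpr12 was at 10.3 ± 1.01 and 9.63 ± 0.900 (log2 difference -0.10, adjusted p = 0.416 from limma). On the normal diet Gpr12 was thus the highest of the family and Gpr6 was at 5.83, while on the high fat diet Gpr6 had the lowest mean.

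The receptors of the indirect pathway act on cAMP, and among 21 measured genes of G protein subunits, adenylyl cyclases and protein kinase A, 2 were called lower and 0 higher, with a median log2 difference of 0.10. The 2 were Gng7 (log2 difference -0.98, standard error 0.11, adjusted p = 0.000775 from limma) and Adcy5 (log2 difference -0.68, standard error 0.08, adjusted p = 0.000842 from limma), the G protein gamma subunit and the cyclase of striatal neurons, which are also in the list of both projection neuron types. Without a minimum change 5 were lower and 7 higher in this list, where 15.3% and 17.7% of all genes tested were.

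Genes beside the members on the chromosomes were measured as well. Specc1l ends 4134 bp before Adora2a on the same strand and was at 17.2 ± 1.28 and 15.8 ± 0.624 FPKM (log2 difference -0.13, adjusted p = 0.138 from limma). Gucd1, 16327 bp beyond Adora2a, was at 6.08 ± 0.479 and 6.10 ± 0.497 (log2 difference 0.01, adjusted p = 0.965 from limma). Of the 8 measured genes nearest to the 4 members on either side, 0 were called lower and 1 was called higher, which was Wasf1, 131407 bp from Gpr6 (log2 difference 0.65, standard error 0.13, adjusted p = 0.00675 from limma). Penk overlaps A830012C17Rik, a transcript of the opposite strand, by 499 bp, and the sources used here do not say if counting took strand into account.

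Markers of the labelled tissue and of other regions were both measured. All 8 markers of cortical projection neurons had a value in each mouse, and their summed FPKM was 470.7 to 727.7 in normal mice and 713.2 to 965 in HFD mice. Of these 8 genes, 4 were called higher (among them Fezf2, Tbr1 and Cux2) and 0 lower. Summed FPKM of the 15 genes of both projection neuron types was 616.2, 506.7, 467.7 and 379.4 in normal mice and 205.8 to 227.7 in HFD mice. For 7 cerebellar markers it was 53.5, 268.1, 358.9 and 104.8 in normal mice and 35.3 to 42.6 in HFD mice, so the normal mouse with the most RNA of the members had the least of these. Of 6 cerebellar markers tested, 4 were called lower (6 without normal mouse 1, 3 without normal mice 2 and 3), and Gabra6, a defining marker, was listed at 0 in HFD mouse 1. Thalamic markers summed to 58.9, 126.4, 114.3 and 51.1 in normal mice and 43.8 to 54.9 on the high fat diet, with 1 of 6 called lower, and 2 without normal mouse 1 or 4 without normal mouse 4. Oligodendrocyte markers were called lower in 6 of 6, with sums of 2019.1 to 3338.7 and 1396.4 to 1937.4, and in 4 without normal mice 2 and 3. Choroid plexus markers were called lower in 2 of 4, with sums of 341.4 to 723.6 in normal mice, 20.7 to 76.2 in HFD mice 1 to 3 and 938.3 in mouse 4. That count was 4 without HFD mouse 4, 2 without normal mouse 4 and 0 without any other mouse. Of astrocyte markers 1 of 5 was called lower, of microglia markers 0 of 5 and of endothelial markers 0 of 3, while of 7 interneuron markers 1 was called lower (Pvalb) and 1 higher (Vip). Pvalb lost its call without normal mouse 2 or 3 or HFD mouse 1, 2 or 4, and Vip without normal mouse 3. Without normal mice 2 and 3 together 0 interneuron and 0 astrocyte markers were called, and 3 of the cortical projection neuron markers were. Without normal mice 2 and 3, which held the most cerebellar and thalamic RNA, the log2 difference of Adora2a was -4.01, that of Drd2 -3.59, that of Penk -3.11 and that of Gpr6 -1.55, and 13 of the 15 genes of both projection neuron types were called lower. That subset was chosen after seeing the data. It kept normal mouse 1, with the highest sum of the 15 genes (616.2), so it cannot address differing amounts of striatal RNA. The part of the other regions and cell types in the values of the members was not tested.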

How the data were processed

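Per the labels and the study's methods, reads were quality checked with FastQC, trimmed with Trimmomatic and aligned to mm10 with STAR, and the authors calculated FPKM with Cuffnorm on the GENCODE M17 basic annotation (GRCm38.p6). Tool versions were not stated in the sources used. The deposited FPKM values are rounded to 0.1 and summed to between 562431 and 639142 per mouse. FPKM keeps no read counts, so depth is unknown and no counting interval was given.

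From these values log2(FPKM + 0.1) was computed for the 13982 genes averaging 1 FPKM or more and never at 0, the filter of the study. The diets were compared with limma 3.58.1 (R 4.3.3, variance trend, two-sided, Benjamini-Hochberg) in place of the study's t-test. The 50% change its supplement asks for was read as a ratio above 1.5 in either direction, applied to the log2 difference. The study also ran Salmon with edgeR and kept only genes significant by both routes, a step not repeated here. The script was tested on simulated data. Tables and figures used matplotlib 3.10.9, pandas 2.3.3 and numpy 2.4.6 under Python 3.11.15, and coordinates were taken from GENCODE M21. Of 149 listed genes 128 had a value, 2 of them matched by gene ID.

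The members and the 19 lists were chosen with earlier results of these data known, as were the tests. The text names the members, in each list up to 4 genes called with the largest difference and its defining markers, the 8 genes nearest to the mean profile of the members and the gene nearest to each. Some genes that the rule selects are not reported here. Other list genes and chromosomal neighbours were named beyond this rule after their values were seen. None of the 5 cholinergic markers was analysed here. The fit was repeated with added constants of 0.5 and 1, without the filter or with a mean of at least 5 FPKM, after median-ratio or quantile scaling, without the variance trend, with replicate number as a block, without a minimum change and with mice left out. Leaving out normal mice 2 and 3 together was chosen after seeing the data.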

Additional observations from a re-analysis of the deposited data

Results flagged for a closer look

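In 9 of 76 sets of 4 mice, drawn from the members and the named list genes reported here, 1 mouse stood apart by Dixon's test, where chance gives about 1 in 20. Among the members this was Adora2a in HFD mouse 4, at 0.6 FPKM against 0.4 in each of the other 3, values that tie after rounding to 0.1. HFD mouse 3 stood apart with 15 FPKM of Scn4b (the others 7.2 to 7.6), 4 FPKM of Gpr3 (2.1 to 2.4) and 0.9 FPKM of Slc29a4 (1.4 to 1.5). The same mouse stood apart for the myelin genes Mobp at 402 FPKM (297 to 311.8) and Mag at 78.6 (55.5 to 57.5). HFD mouse 4 stood apart with 5.7 FPKM of Tac1 (7.7 to 8.1) and with the choroid plexus genes Folr1 at 7.2 (0.3 to 0.6) and Clic6 at 4.7 (0.7 to 1.3). Within the rounding, 4 of the 9 (Scn4b, Mobp, Mag and Folr1) stay above the critical value in any case, and 5 (Adora2a, Tac1, Slc29a4, Gpr3 and Clic6) may lie below it.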

How the results depend on the processing

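No log2 difference of the 4 members or of the 36 list genes recomputed changed sign under the alternatives run, and other genes in the text were not recomputed singly. Where they were recomputed, the log2 differences of the members moved beyond their spread only with a larger added constant, to -2.93 (constant of 0.5) and -2.41 (constant of 1) for Drd2, -3.34 and -2.80 for Adora2a and -1.27 (constant of 1) for Gpr6. With a mean of at least 5 FPKM only Penk was kept (-3.24), so Drd2, Adora2a and Gpr6 have no value in that setting. With each mouse left out the differences of the members lay between -3.89 and -3.51 for Drd2, -4.29 and -3.89 for Adora2a, -3.44 and -3.14 for Penk and -1.80 and -1.50 for Gpr6. Over all genes, 268 were called lower and 335 higher with a constant of 1, 172 and 250 with a mean of at least 5 FPKM, 2146 and 2480 without a minimum change and 231 and 365 without normal mice 2 and 3, against 406 and 591 in the report, and with each mouse left out 310 to 485 were lower and 459 to 708 higher. Without a minimum change, 4 other indirect pathway genes and 1 direct pathway gene were higher, 4 adenosine genes were lower and 1 higher, 2 opioid genes were higher, and 5 cAMP genes were lower and 7 higher. With a constant of 1, 0 other indirect pathway genes were called higher and 0 opioid genes lower. With a mean of at least 5 FPKM, which keeps fewer genes, 1 dopamine gene and 0 adenosine, opioid and Gpr6-related genes were called lower, and without normal mice 2 and 3 2 dopamine genes were. With each mouse left out, 14 to 15 genes of both projection neuron types, 3 to 4 direct pathway, 3 to 4 dopamine, 2 to 3 opioid and 2 to 3 cAMP genes were called lower. Deviations from the diet mean had correlations of -0.038, -0.028, -0.109 and -0.072 between mice with the same replicate number. Mice with different numbers were not compared, so these values cannot settle whether the numbers pair the mice. With the number as a block, 357 genes were lower and 539 higher, 14 genes of both projection neuron types were called lower, and Gpr3, Drd5, Folr1 and Clic6 lost their calls, leaving 0 of the receptors related to Gpr6, 3 dopamine genes and 0 choroid plexus markers, while 2 thalamic markers were called. Without the variance trend 0 choroid plexus markers and 0 interneuron markers were called lower. For the 36 named list genes, 583 of 632 values kept their call and 49 lost it. The cause of these changes was not tested. Rounding to 0.1 FPKM and the unknown depth limit the values of Drd2 and Adora2a on the high fat diet.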
